A study of Mus musculus with 8 samples.

Results

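Metallothioneins are small, cysteine-rich proteins that hold zinc and copper ions through their thiol groups. The genes described here are Mt1, Mt2 and Mt3, 3 of the 32285 genes counted in a single-cell CRISPR screen (CROP-seq) of CD8+ T cells from mouse pancreatic tumours. They were named as a set with values of these libraries already known, among them the higher Mt3 level under anti-PD-1, so treatment values and correlations between cells are given as descriptions without a test. Model p-values are given for marker-defined cell states and for gene knockouts. The states are among the readouts for which the set was named, so their p-values set a difference beside the spread between libraries and are not independent evidence.

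The T cells were OT-I cells, which carry a transgenic receptor for an ovalbumin peptide, from mice with Cas9 knocked into Rosa26. They were transduced with a lentiviral guide library against metabolic genes that also carries CD90.1, and were injected into mice bearing orthotopic KPC_OVA tumours, a pancreatic cancer line that makes ovalbumin. Recipients were given anti-PD-1 or control IgG from the day of transfer, and CD90.1+ OT-I cells were sorted from the primary tumour 7 days later. There were 3 anti-PD-1 libraries (replicates 1, 2 and 3) and 1 IgG library. Each library held cells with a guide against a metabolic gene, cells with a nontargeting guide (sgNT) and barcodes with no called guide. All cells, controls included, came from the Cas9 strain, so none were wild type. Of 56359 barcodes 28447 had no called guide, and of the 23059 cells kept below 2685 had sgNT; a called guide stands here for its knockout, since editing itself was not measured. The labels give neither age nor sex of the mice, and the sources used here do not tie mice to libraries. The titles give replicates 1 and 2 a shared identifier that replicate 3 and IgG do not have, so these 2 libraries may not be independent of each other, and an SD over 3 libraries may understate the spread between experiments.

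Mt1 and Mt2 are the widely expressed metallothioneins. In most tissues their transcription follows free zinc, which is sensed by the transcription factor MTF1, and it is also raised by glucocorticoids, oxidative stress and low oxygen. Mt3 is best known from the brain, where it was described as a growth inhibitory factor of neurons, and it responds to metals less readily than the other two. In T cells, metallothioneins buffer the zinc that enters on activation, and their transcripts have been described in dysfunctional CD8+ T cells of tumours.

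All 3 genes lie on the plus strand of chromosome 8 (GRCm38): Mt3 (ENSMUSG00000031760) at chr8:94152607-94154146, Mt2 (ENSMUSG00000031762) at chr8:94172664-94173568 and Mt1 (ENSMUSG00000031765) at chr8:94179082-94180327. The gap between Mt3 and Mt2 was 18517 bases, that between Mt2 and Mt1 5513 bases, and the whole stretch from Mt3 to Mt1 27721 bases. The fourth gene of the cluster, Mt4, known from stratified epithelia, lay 13575 bases before Mt3. The longest run of identical bases shared by annotated transcripts was 20 bases for Mt1 and Mt2, 27 for Mt1 and Mt3 and 20 for Mt2 and Mt3. Gm45774, an antisense gene that overlaps Mt2, had 0.01 to 0.06 CPM in the 4 libraries (CPM, counts per 1000000 UMIs, where a UMI, unique molecular identifier, is 1 counted molecule).

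The 250 bases before each RefSeq start (GRCm38.p6, plus strand, written 5′ to 3′) are shown because the 3 neighbours differed in them. Capitals mark the metal response core, searched as TGCGCNC and TGCACNC on both strands, to which MTF1 is known to bind. The windows are chr8:94178839-94179088 for Mt1, chr8:94172368-94172617 for Mt2 and chr8:94152357-94152606 for Mt3.
Mt1: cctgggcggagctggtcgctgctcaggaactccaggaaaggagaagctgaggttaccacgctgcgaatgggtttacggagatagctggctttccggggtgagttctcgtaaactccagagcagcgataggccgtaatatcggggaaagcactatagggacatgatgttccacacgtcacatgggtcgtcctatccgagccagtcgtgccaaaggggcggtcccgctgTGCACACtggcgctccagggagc
Mt2: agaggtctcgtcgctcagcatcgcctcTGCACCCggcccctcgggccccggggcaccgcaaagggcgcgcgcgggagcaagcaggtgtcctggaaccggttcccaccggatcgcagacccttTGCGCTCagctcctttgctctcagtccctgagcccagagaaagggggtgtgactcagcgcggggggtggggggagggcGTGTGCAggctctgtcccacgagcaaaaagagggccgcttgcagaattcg
Mt3: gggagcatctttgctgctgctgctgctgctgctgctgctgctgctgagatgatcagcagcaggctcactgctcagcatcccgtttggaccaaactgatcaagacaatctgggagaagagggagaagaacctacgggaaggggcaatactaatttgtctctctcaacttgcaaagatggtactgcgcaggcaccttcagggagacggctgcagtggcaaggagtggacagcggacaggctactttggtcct

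The Mt1 window held 1 metal response core, whose first base on the printed strand was at -23, and the Mt2 window held 3, at -223, -128 and -50, the last on the minus strand. No such letters were in the Mt3 window. Of the 32851 RefSeq promoter windows cut to the same length, 21.4% held at least 1 core (12.5% TGCGCNC and 10.4% TGCACNC) and 1.26% held 3 or more. The core of the hypoxia response element was searched as ACGTG, held by 16.6% of all windows, and as GCGTG, held by 28.2%. It occurred at -79 and -194 in the Mt1 window and at -52 in the Mt2 window, where its letters overlap those of the metal response core on the minus strand. The antioxidant response core TGACNNNGC, held by 10.2% of windows, occurred once, in the Mt2 window at -79. None of the 5 searched motifs was in the Mt3 window, which says only that these letters are absent from those 250 bases. GENCODE lists coding starts at 94179082, 94179211 and 94179241 for Mt1, 94172664 and 94172860 for Mt2, and 94152607 and 94152746 for Mt3. The first Mt1 start lies inside its window and all the others lie after theirs. The bases after the windows were not searched, so the windows need not be the ones in use here.

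The 4 libraries held between 9579 and 23269 barcodes and 142945121 to 155974184 gene UMIs each. After filters on UMIs per cell and mitochondrial share, 2535, 2597 and 6432 single-guide cells remained under anti-PD-1 and 11495 under IgG, 23059 of 56359 barcodes in all. Their median UMIs per cell were 16829, 16325 and 12084 in the anti-PD-1 libraries and 6329 in the IgG library, so depth per cell went with treatment. Replicates 1 and 2 stood apart from replicate 3 and IgG in a few transcripts, such as the receptor gene Trac (1918 and 1769 against 798 and 700 CPM) and Dusp1, an immediate early phosphatase (115 and 116 against 11.9 and 12.7). The T cell markers Cd8a, Cd8b1, Cd3e, Cd3d and Trac were each detected in 95.8% of cells or more in every library, whereas Cd4 and Foxp3 reached at most 0.565%. Summed markers of B or plasma cells amounted to 62.9, 55.6, 196 and 71.9 CPM in replicates 1, 2 and 3 and IgG. All other lists of foreign cell types (epithelial, fibroblast, myeloid, endothelial, acinar, erythroid and helper T cell) summed to at most 23.4. Any pair of libraries shared 30 to 93 barcode sequences, 3 to 18 of them among kept cells.

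Levels were first taken as UMIs summed over the single-guide cells of a library, relative to all gene UMIs of the same cells. They are compared between libraries for 1 gene at a time, since 3′ counts of different genes were not set against each other.

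Mt1 had 258, 278 and 308 CPM in anti-PD-1 replicates 1, 2 and 3 and 220 CPM in IgG. The 3 anti-PD-1 libraries averaged 281 ± 25.3 CPM (SD, n = 3), 1.28 times the IgG value, or 0.36 on the log2 scale. The lowest anti-PD-1 library lay above IgG by less than the distance between the lowest and the highest anti-PD-1 library.

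Mt2 had 48.8, 50.0 and 44.6 CPM under anti-PD-1 and 32.2 CPM under IgG. The mean of 47.8 ± 2.86 CPM (SD, n = 3) was 1.49 times the IgG value (log2 0.57). All 3 anti-PD-1 libraries were closer to each other than to IgG.

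Mt3 had 34.1, 34.5 and 28.6 CPM under anti-PD-1 and 15.5 CPM under IgG. The mean was 32.4 ± 3.31 CPM (SD, n = 3) and the ratio 2.09 (log2 1.07), the largest of the 3 members. Replicate 3, the anti-PD-1 library nearest to IgG in the transcripts that set the libraries apart, also had the lowest Mt3 level of the 3, at 1.85 times IgG. Its ratios to IgG were 1.40 for Mt1 and 1.39 for Mt2.

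The 3 anti-PD-1 libraries did not overlap IgG for any of the 3 members, but this was common. Of 6975 genes with a mean of at least 10 CPM, 1571 (22.5%) had all 3 anti-PD-1 libraries above IgG and 1563 had all of them below. With a single IgG library no spread among IgG libraries is known, and the treatment cannot be told apart from whatever else set that library apart, depth per cell included. Mt4 had 2 UMIs in IgG and 0 in each anti-PD-1 library, so it was at the floor throughout. Mtf1, the gene of the zinc sensor, had 18.5 to 18.9 CPM in all 4 libraries. Of 9 zinc handling genes of at least 10 CPM, 2 were above IgG in all 3 anti-PD-1 libraries and 2 below it, and of 6 copper handling genes 2 were above and 1 below.

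**Figure D1:**
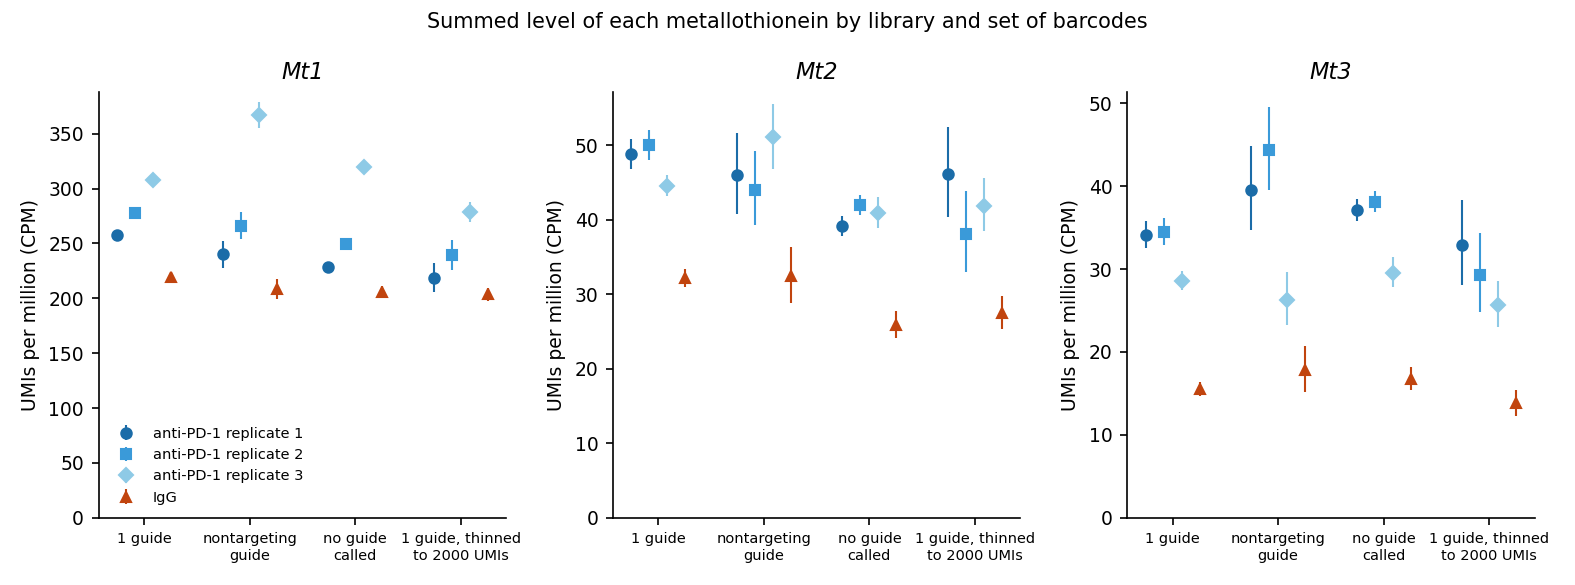
Summed level of Mt1, Mt2 and Mt3 in CPM (y axis, from 0) for single-guide cells, sgNT cells, barcodes with no called guide, and single-guide cells thinned to 2000 UMIs. Points are libraries and bars are exact 95% Poisson intervals, which cover counting error only. IgG is the lowest library in every group of points, and for Mt3 in single-guide cells it lies at 15.5 CPM against 28.6 to 34.5 CPM.

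The same order was seen in other sets of barcodes. Cells with sgNT, which have no targeted gene, had 240, 266 and 367 CPM of Mt1 under anti-PD-1 and 208 CPM under IgG, and 39.5, 44.3 and 26.3 CPM of Mt3 against 17.8 CPM. Barcodes with no called guide had Mt3 at 37.1, 38.1 and 29.6 CPM under anti-PD-1 and at 16.8 CPM under IgG. The log2 ratio of Mt3 was 1.04 in sgNT cells, 1.06 in barcodes without a guide and 1.08 in thinned cells. IgG was below every anti-PD-1 library for each member in each of these sets.

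The share of cells with at least 1 UMI, a measure that also depends on depth, differed more. Mt3 was seen in 34.6%, 32.9% and 24.0% of cells in replicates 1, 2 and 3 and in 8.88% of IgG cells. When every cell was thinned to 2000 UMIs (163 shallower cells, all of them IgG, were dropped) the shares were 6.07% (exact 95% binomial interval 5.18 to 7.08), 5.47%, 4.82% and 2.66%. Mt2 had thinned shares of 7.53%, 6.55% and 7.03% under anti-PD-1 and 4.62% under IgG, against 33.4%, 32.8%, 26.1% and 13.8% before thinning. Mt1, seen in 64.5%, 64.2%, 59.3% and 42.1% of cells before thinning, had shares of 25.2%, 26.8%, 28.0% and 23.0% after it. Thinning lowers every share, so the gap in percentage points had to narrow, and how much of it depth accounts for cannot be read from this. IgG had the lowest share of each member before and after it. The sort left no cell type that should lack these transcripts, so the part of free RNA in the droplets was not measured.

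Depth also moved with the level itself. Within each library the cells were split into quartiles of UMIs per cell, and the summed CPM of each member was taken per quartile. Mt1 went from 165 CPM in the shallowest to 323 CPM in the deepest quartile of replicate 1, from 144 to 342 in replicate 2, from 202 to 371 in replicate 3 and from 173 to 263 in IgG. The deepest quartile exceeded the shallowest 1.53-fold to 2.37-fold for Mt1, 1.74-fold to 2.61-fold for Mt2 and 1.41-fold to 1.95-fold for Mt3. In all 4 libraries the deeper cells thus had the larger share of each of the 3 transcripts. By mitochondrial share the order was the opposite, with the top quartile at 0.565 to 0.647 of the bottom one for Mt1, 0.586 to 0.692 for Mt2 and 0.724 to 0.965 for Mt3.

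**Figure D2:**
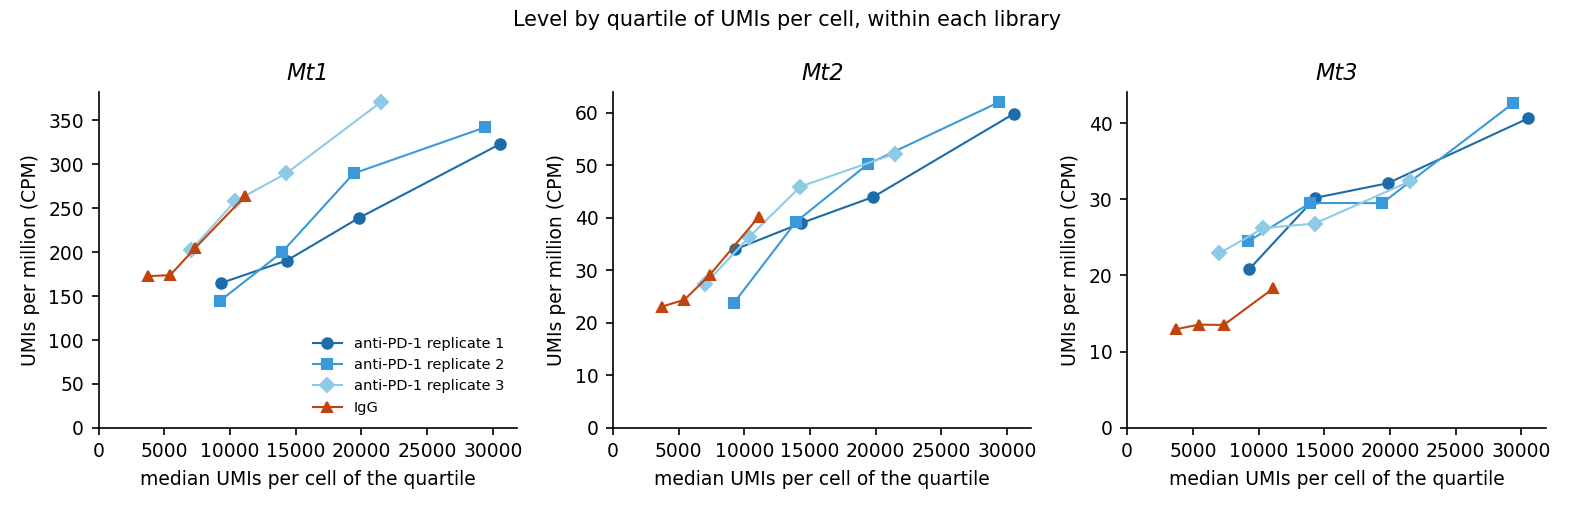
Level of each member in CPM (y axis, from 0) against the median UMIs per cell of each quartile (x axis), with 1 line per library and no intervals. In IgG the Mt1 level goes from 173 CPM in the shallowest to 263 CPM in the deepest quartile, and the Mt3 line of IgG lies under those of the anti-PD-1 libraries.

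Since IgG cells were the shallowest, the libraries were also compared among cells of like depth, in bands picked after the dependence on depth had been seen. Between 10000 and 15000 UMIs, Mt1 had 178, 182 and 268 CPM in the anti-PD-1 libraries and 262 CPM in IgG, and Mt2 had 34.9, 34.3 and 39.8 CPM against 40.4 CPM. In that band the mean of the anti-PD-1 libraries was below IgG for both genes, and only replicate 3, for Mt1, was above it. The log2 ratio was -0.32 for Mt1 and -0.15 for Mt2. Between 5000 and 10000 UMIs the log2 ratios were -0.20 and -0.03, and between 15000 and 20000 UMIs -0.15 and 0.05. Mt3 behaved differently, with 29.9, 28.1 and 26.4 CPM against 16.96 CPM in the middle band. Its log2 ratio was 0.61, 0.73 and 0.32 from the shallowest to the deepest band, with all 3 anti-PD-1 libraries above IgG in each. The deepest band held 357 IgG cells with 145 Mt3 UMIs. Within each band the IgG cells were still the shallowest. Their median was 6849 UMIs against 8040 to 8361 under anti-PD-1 in the first band. It was 11650 against 12131.5 to 12624 in the middle band and 16385 against 17112 to 17259 in the deepest. The part of this remaining gap in the ratios was not tested. Cells of equal UMI number need not be equal in RNA content when libraries differ in sequencing per cell, so the bands and the summed levels are both given.

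The UMIs of a member were not spread evenly over cells. Among thinned cells, the top 10% of cells of each library held 63.9% to 68.1% of all Mt1 UMIs and the top 1% held 14.8% to 18.2%. The Fano factor (variance over mean of the UMIs per cell) of Mt1 was 2.62, 2.49, 3.38 and 2.81 in replicates 1, 2 and 3 and IgG, while the median over 4268 to 4381 genes was 1.03 to 1.04. That placed Mt1 between ranks 25 and 38 among those genes. Mt2 had Fano factors of 1.25 to 1.58 (ranks 102 to 323). Mt3, at 1.05 to 1.10 (ranks 789 to 1477), was close to the median gene. Before thinning, the highest single cells held 300 Mt1 UMIs and 24 Mt3 UMIs, both in replicate 3, and 89 Mt2 UMIs, in replicate 1.

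Cells rich in Mt1 were also rich in Mt2. In thinned cells without an Mt1 UMI, Mt2 was seen in 4.12%, 3.16%, 3.58% and 2.36% of cells of replicates 1, 2 and 3 and IgG. In cells with 5 or more Mt1 UMIs, which numbered 23, 35, 133 and 133, it was seen in 69.6%, 42.9%, 45.1% and 43.6%. The exact 95% interval of the lowest of these, in replicate 2, was 26.3 to 60.6. In every library each class had a higher share than the one before it. Mt3 went from 4.64%, 4.05%, 3.97% and 2.25% of cells without Mt1 to 26.1%, 8.57%, 9.77% and 3.76% of cells with 5 or more. The last 4 shares rest on 6, 3, 13 and 5 cells, and the intervals in replicate 2 (1.80 to 23.1) and IgG (1.23 to 8.56) include the share of cells without Mt1. The median UMIs per cell before thinning were 16043, 15342.5, 11606 and 6244 in cells without Mt1 and 19147, 21021, 12533 and 7344 in the top class, and their part in the difference was not tested.

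**Figure D3:**
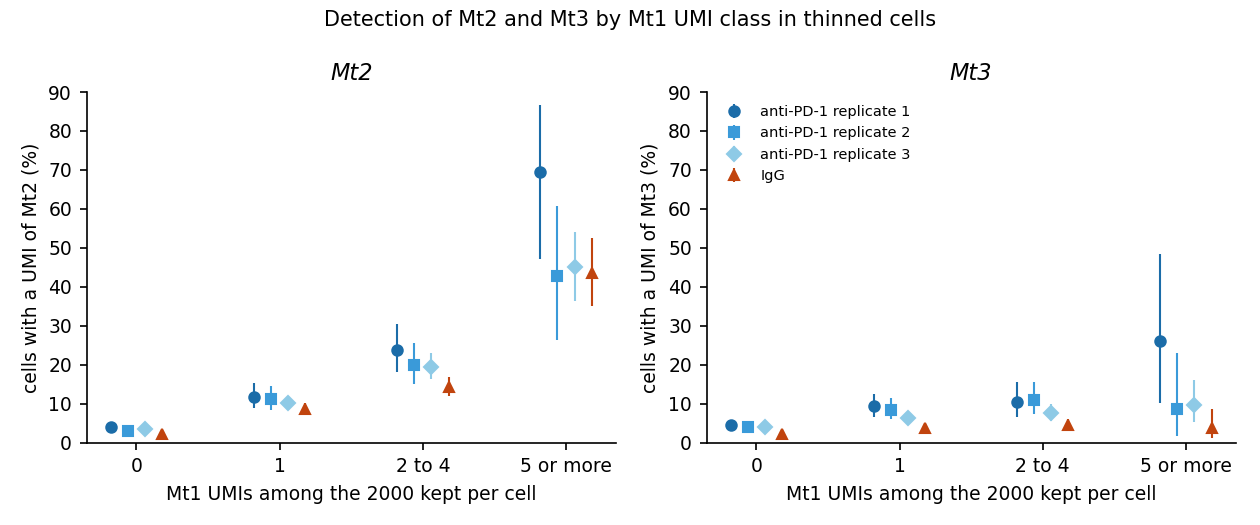
Percent of thinned cells with a UMI of Mt2 (left) or Mt3 (right) by the number of Mt1 UMIs among the 2000 kept per cell (0, 1, 2 to 4, 5 or more). Each class has 1 point per library, with bars of exact 95% binomial intervals. Mt2 goes from between 2.36% and 4.12% at 0 Mt1 UMIs to between 42.9% and 69.6% at 5 or more, while Mt3 ends between 3.76% and 26.1%.

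Marker-defined states were then compared. Each cell was scored for 9 lists of marker genes, none of which holds a metallothionein, and took the list with its highest score or, below a score of 0.5, no state. Names of states refer to these lists only. Counts were summed per state and library, and each state was tested against the mean of the other states with the library as a block (edgeR quasi-likelihood test, adjusted over all 10886 genes tested). The mean of the other states includes the cells with no state, where Mt1 averaged 158 CPM. States differ in many genes: 46.1% of all genes passed for the cytokine list, 36.1% for effector memory, 37.7% for exhausted, 58.2% for G1/S, 50.0% for G2/M, 16.9% for granzyme C, 29.6% for hypoxia, 10.0% for interferon and 32.4% for precursor. Against this, Mt1 and Mt2 each passed in 5 of 9 states and Mt3 in 4 of 9, and the size and order of the differences say more than the counts.

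The highest mean Mt1 level was in the hypoxia state, defined by transcripts that low oxygen raises, such as Bnip3, Aldoc and Vegfa. There Mt1 had 553, 514 and 638 CPM in the anti-PD-1 libraries and 441 CPM in IgG. In the precursor state, defined by Tcf7, Slamf6 and other genes of stem-like CD8+ T cells, it had 151, 117 and 110 CPM under anti-PD-1 and 82.9 CPM under IgG. Every library of the hypoxia state lay above every library of the precursor state. The log2 difference from the mean of the other states was 1.28 ± 0.08 (SE, adjusted p = 1.6e-17) for hypoxia and -1.18 ± 0.10 (adjusted p = 2.6e-12) for precursor.

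Mt1 was as high in the granzyme C state, defined by the clustered granzyme genes Gzmc to Gzmg, with 435, 523 and 616 CPM under anti-PD-1 and 560 CPM under IgG. This state was small, with 30, 41, 160 and 294 cells. Its mean of 533 ± 75.9 CPM (SD, n = 4) and that of the hypoxia state, 536 ± 82.2 CPM, differed by less than the SD of either. The fitted log2 difference was 1.38 ± 0.09 (adjusted p = 2.0e-15). Mt1 was lower in the effector memory state, defined by Klf2, S1pr1 and other genes of recirculating cells (-0.56 ± 0.10, adjusted p = 1.1e-05), and in the interferon state (-0.55 ± 0.11, adjusted p = 0.00047). In the G1/S, G2/M, exhausted and cytokine states the means ranged from 235 to 276 CPM and the log2 differences from -0.04 to 0.19, none past the threshold. The G1/S difference of Mt1 passed without replicate 1 (0.22, adjusted p = 0.046), with a score threshold of 0 (0.23, adjusted p = 0.012), without cells rich in markers of other cell types (0.19, adjusted p = 0.033) and without the filter on low counts (0.23, adjusted p = 9.8e-09). Among sgNT cells alone, the Mt1 difference was 0.86 in the granzyme C state (adjusted p = 0.019), and the interferon call was lost (-0.37, adjusted p = 0.74). In barcodes with no called guide the interferon difference was -0.86 (adjusted p = 1.4e-08), and with states from thinned cells the effector memory difference was -0.26 (adjusted p = 0.014). In a different contrast, the 20% of cells with the highest score of each list (the best-scoring cells) against all other cells of their library, so that a cell could count for several lists, Mt1 also passed for the exhausted (0.24, adjusted p = 8.0e-05) and cytokine (0.11, adjusted p = 0.015) lists. Its granzyme C, effector memory and interferon differences were smaller there (0.70, -0.24 and -0.20).

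Mt2 was also highest in these 2 states. It had 70.8, 123 and 91.9 CPM under anti-PD-1 and 109 CPM under IgG in the granzyme C state, and 101, 86.5, 95.2 and 61.7 CPM in the hypoxia state. The means of the 2 states, 98.7 ± 22.5 and 86.1 ± 17.4 CPM (SD, n = 4), differed by less than either SD. In the precursor state it had 33.2, 22.6, 16.3 and 12.3 CPM. No library of the precursor state reached the lowest one of the hypoxia or granzyme C state. The log2 differences were 1.61 ± 0.14 (adjusted p = 7.9e-12) for granzyme C, 1.22 ± 0.10 (adjusted p = 7.8e-14) for hypoxia and -1.09 ± 0.14 (adjusted p = 3.6e-08) for precursor. The interferon state was lower by 0.80 ± 0.18 and the effector memory state by 0.60 ± 0.14 on the log2 scale (adjusted p = 0.0020 and 0.00049). Among sgNT cells alone, the Mt2 granzyme C difference was 0.72 and did not pass (adjusted p = 0.275), and neither did the precursor (-0.72, adjusted p = 0.076), effector memory (-0.64, adjusted p = 0.11) and interferon (-0.74, adjusted p = 0.55) differences. With states from thinned cells the effector memory call was lost (-0.29, adjusted p = 0.066) and the interferon difference was -0.48 (adjusted p = 0.034). With the best-scoring cells of each list the granzyme C difference was 0.83, the effector memory difference -0.34 and the interferon difference -0.24, all past the threshold. The G1/S difference of Mt2, 0.22 ± 0.10 (adjusted p = 0.056), passed without replicate 1 (0.29, adjusted p = 0.014), with a score threshold of 0 (adjusted p = 0.049), without cells rich in markers of other cell types (adjusted p = 0.037) and without the filter on low counts (adjusted p = 9.7e-06).

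Mt3 had a different order of states. Its highest mean level over the 4 libraries was in the G1/S state, defined by replication licensing genes such as Mcm2 to Mcm7, with 47.2, 46.0 and 39.1 CPM under anti-PD-1 and 20.1 CPM under IgG. That was the top state in replicates 2 and 3, whereas in replicate 1 the granzyme C state was higher (54.4 CPM) and in IgG the effector memory (20.4 CPM) and hypoxia (20.2 CPM) states were about level with it. Its lowest mean level was in the precursor state, with 17.1, 14.8 and 11.7 CPM under anti-PD-1 and 7.07 CPM under IgG, where the interferon state was lower still (5.72 CPM). Each library had more Mt3 in its G1/S state than in its precursor state, although the IgG value in G1/S was close to the replicate 1 value in precursor. The log2 differences were 0.64 ± 0.08 (adjusted p = 1.9e-08) for G1/S and -1.08 ± 0.13 (adjusted p = 1.7e-08) for precursor. Among sgNT cells alone the G1/S difference of Mt3 was 0.44 and just missed the threshold (adjusted p = 0.0502).

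Hypoxia was called for Mt3 as well, but with a small difference of 0.36 ± 0.10 (adjusted p = 0.0054). The call was lost without IgG (0.30, adjusted p = 0.053), without replicate 2 (0.32, adjusted p = 0.055), with states taken from thinned cells (0.13, adjusted p = 0.29) and among sgNT cells (0.21, adjusted p = 0.67). The exhausted state, defined by Pdcd1, Havcr2 and other inhibitory receptor genes, was called at 0.26 ± 0.10 (adjusted p = 0.042). That call was lost without replicate 1 (0.24, adjusted p = 0.090), without replicate 3 (0.21, adjusted p = 0.15) and without IgG (0.27, adjusted p = 0.070). It was also lost with DESeq2 (0.25, adjusted p = 0.079) and with states from thinned cells (0.19, adjusted p = 0.091). The same held in barcodes with no called guide (0.21, adjusted p = 0.10) and among sgNT cells (0.24, adjusted p = 0.53). In the granzyme C state, where Mt1 and Mt2 were high, Mt3 had 54.4, 36.2 and 18.1 CPM under anti-PD-1 and 13.7 CPM under IgG. These spanned a wide range, and the log2 difference of 0.11 ± 0.19 did not pass (adjusted p = 0.78). With the best-scoring cells of the granzyme C list it was 0.34 and passed (adjusted p = 0.017). Without replicate 3 the effector memory (0.40, adjusted p = 0.0069) and interferon (-0.61, adjusted p = 0.043) differences of Mt3 passed. The effector memory difference also passed with a score threshold of 1 (adjusted p = 0.042) and without the filter on low counts (adjusted p = 0.020), and the interferon difference with a threshold of 0 (adjusted p = 0.042), with DESeq2 (adjusted p = 0.015) and without the filter (adjusted p = 0.00030).

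**Figure D4:**
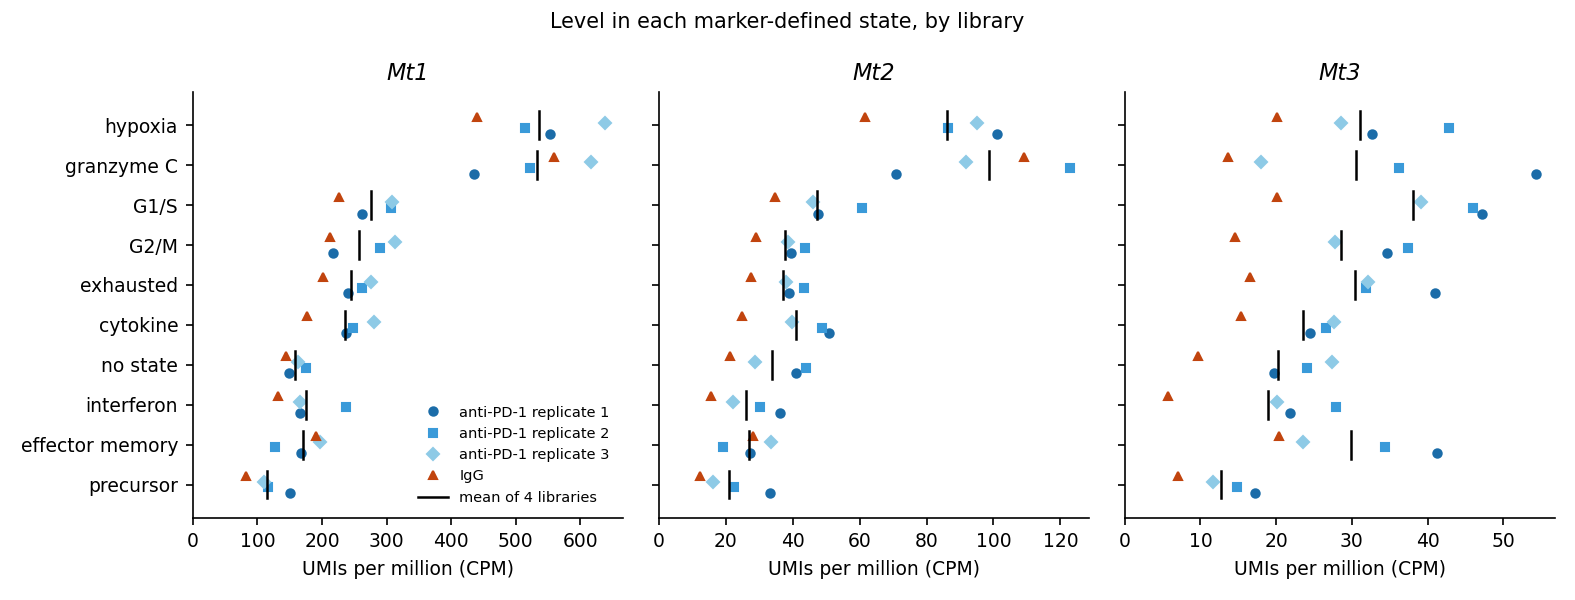
Level of each member in CPM (x axis, from 0) in the 9 marker-defined states and in cells with no state (y axis), with 1 point per library. By their means, Mt1 and Mt2 are highest in the hypoxia and granzyme C states and Mt3 in G1/S, where its 4 libraries range from 20.1 to 47.2 CPM, and the mean over libraries is lowest in the precursor state for all 3. In single libraries Mt2 is lower in effector memory than in precursor in replicates 1 and 2, Mt3 is lower in interferon than in precursor in IgG, and Mt1 is lower in cells with no state (149 CPM) than in precursor (151 CPM) in replicate 1.

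Because the members' levels moved with depth, the main states were also compared within quartiles of UMIs per cell. In the hypoxia state Mt1 was above the other cells of its quartile in 16 of 16 quartiles of the 4 libraries (1.53-fold to 3.83-fold), and Mt2 in 16 of 16 (1.33-fold to 4.29-fold). Median UMIs of the hypoxia state were 17647, 16520 and 12011.5 under anti-PD-1 and 5956.5 under IgG, close to those of whole libraries. In the precursor state all 3 members were below the other cells in 16 of 16 quartiles. Mt3 in G1/S was above in 15 of 16 quartiles, with a median ratio of 1.47, whereas Mt1 was above in 8 of 16 and Mt2 in 6 of 16 (median ratio 0.933). Mt3 was above in 11 of 16 quartiles in the hypoxia state and in 4 of 16 in the granzyme C state (median ratio 0.709). Cells of the G1/S state were deeper than their libraries, with medians of 22430.5, 21554, 16632.5 and 8543 UMIs. In the granzyme C state Mt1 was above in 13 of 16 and Mt2 in 11 of 16 quartiles, the smallest of which held 6 cells.

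State names rest on scores with soft borders. Between 10.4% and 11.5% of the cells of a library lay within 0.1 of the score of 0.5 or of the next list, and 52.1% to 62.3% kept their state when scored from 2000 UMIs. With states from thinned cells, Mt1 passed in 5 states, Mt2 in 4 and Mt3 in 2. In the sgNT cells alone, which were few per state, Mt1 passed in 4 states, Mt2 in 1 and Mt3 in 1. The precursor, hypoxia, granzyme C and effector memory calls of Mt1, the hypoxia call of Mt2 and the precursor call of Mt3 held under each of the 13 alternatives tried.

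The treatment values were read within states too. Mt3 was above IgG in all 3 anti-PD-1 libraries in 10 of 10 states (cells with no state counted as 1), with log2 ratios from 0.70 to 2.02. The widest ratio, in the interferon state, rests on 16 IgG UMIs. Mt1 and Mt2 were above IgG in all 3 libraries in 8 of 10 states. The exceptions were the effector memory state (log2 ratios -0.22 and -0.07) and the granzyme C state (-0.09 and -0.20). With all states given equal weight, the log2 ratio was 0.25 for Mt1, 0.42 for Mt2 and 1.08 for Mt3.

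Correlations between cells were taken within each library, as Pearson's r of log-normalised counts over single-guide cells, and are descriptions, since cells of a library share its depth and free RNA. Mt1 and Mt2 had r of 0.638, 0.633 and 0.612 in the anti-PD-1 libraries and 0.476 in the shallower IgG library. Mt3 was less like either, with a mean r of 0.195 with Mt1 and 0.135 with Mt2 over the 4 libraries. Thinned to 2000 UMIs, the means were 0.271 for Mt1 and Mt2, 0.082 for Mt1 and Mt3 and 0.037 for Mt2 and Mt3. The order of the 3 pairs was the same by Spearman's rho, with means of 0.523, 0.210 and 0.160.

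Among 7665 genes seen in at least 5% of the cells of every library, Mt1 was most like Prf1, the pore-forming perforin (mean r 0.330; 0.376, 0.335, 0.346 and 0.263 by library), and Gzmb, granzyme B (0.322). The next 8 were Ldha, Gapdh, Pgk1, Eno1, Tpi1, Aldoa and Pkm, all enzymes of glycolysis or lactate production, and Bnip3, a mitophagy gene raised by low oxygen, with mean r from 0.280 to 0.305. The median gene had a mean r of 0.01 with Mt1 and the 99th percentile was 0.123. The lowest was Trbc2, a T cell receptor constant region gene (-0.260).

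Mt2 was most like the same pair, Prf1 (0.246) and Gzmb (0.233), followed by Ldha, Bnip3, Tpi1, Mif, Pkm, Pgk1, Aldoa and Gapdh (0.191 to 0.222), and 9 of its 10 genes were among the 10 of Mt1. Mif, which encodes a secreted cytokine, was the exception. Trbc2 was again the lowest (-0.213).

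Mt3 shared Gzmb (0.169), Prf1, Pkm and Gapdh with both, 4 of its 10. The others were Dut, Lig1, Mcm5 and Gmnn, which act in nucleotide supply, DNA ligation and replication licensing, Lgals1, which encodes galectin-1, and 1810037I17Rik. Their mean r ranged from 0.122 to 0.145, above the 99th percentile of 0.088 for all genes. This list was the least stable, as 5 of its 10 genes stayed with Spearman's rho and 5 in thinned cells. Those that stayed with rho were Gzmb and the replication genes Dut, Lig1, Mcm5 and Gmnn, whereas in thinned cells they were Gzmb, Prf1, Lgals1, Dut and Gapdh. Lig1, Mcm5, Gmnn, Pkm and 1810037I17Rik dropped out in thinned cells, where the mean r of Mcm5 with Mt3 was 0.021 and that of Gmnn 0.013. Those that came in were Pgk1, Ldha and Aldoc, enzymes of glycolysis or lactate production, Actb, and the replication gene Pclaf. Gzmb had 0.069 in thinned cells. For Mt1 and Mt2, 9 or 10 stayed under each alternative.

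**Figure D5:**
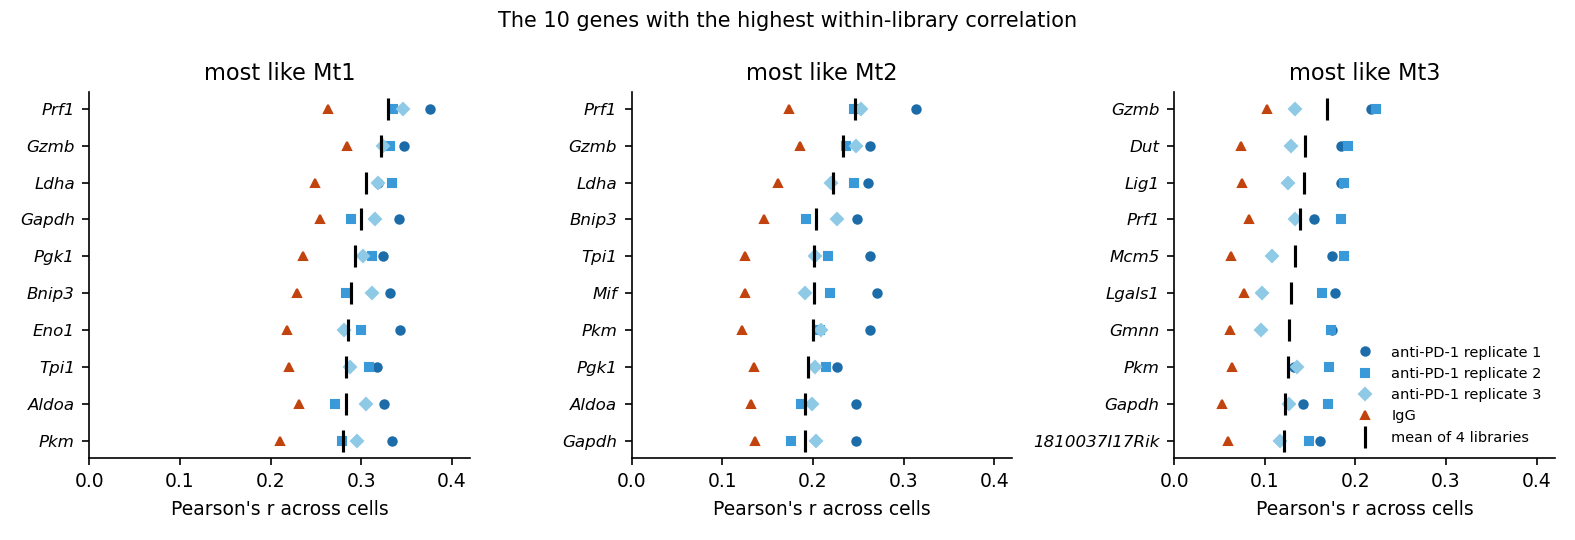
Pearson's r across cells (x axis) for the 10 genes most like Mt1, Mt2 and Mt3 (y axis, by rank), with 1 point per library and a tick at the mean of the 4. For Mt1 the means run from 0.280 to 0.330 and for Mt3 from 0.122 to 0.169, and IgG has the lowest r for each gene shown.

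Read against the scores instead of single genes, Mt1 had a mean r of 0.271 with the hypoxia score, Mt2 0.205 and Mt3 0.050. With the G1/S score the values were 0.120, 0.062 and 0.151, so Mt3 was the highest of the 3 there and the lowest with the hypoxia score. All 3 were negative with the precursor score (-0.168, -0.100 and -0.108). With the log of UMIs per cell they had 0.215, 0.155 and 0.122. Thinned cells with 5 or more Mt1 UMIs had a mean hypoxia score of 2.06, 1.30, 1.22 and 1.47 in replicates 1, 2 and 3 and IgG, against -0.12, -0.09, -0.11 and -0.10 in cells without Mt1.

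Genes of metal handling and of stress pathways that are known to raise metallothioneins were read from lists. Correlations above 0 in all 4 libraries were common, at 39.3% of genes for Mt1, 33.5% for Mt2 and 36.7% for Mt3. Of 12 zinc handling genes in the comparison (MTF1 and zinc transporters), 4 were positive with Mt1 in all 4 libraries, 4 with Mt2 and 2 with Mt3, and 2, 2 and 1 were negative in all 4. Their mean r ran from -0.048 (Slc39a10, a zinc importer gene, with Mt1) to 0.033. Mtf1 itself had mean r of 0.014, 0.006 and -0.010 with Mt1, Mt2 and Mt3. Of 6 copper handling genes, 4 were positive with Mt1, 2 with Mt2 and 6 with Mt3. Cox17, a copper chaperone for cytochrome oxidase, had the highest of these (0.122 with Mt1), and Atox1, the copper chaperone that feeds the secretory pathway, had -0.028 with Mt2 and 0.069 with Mt3. Of 6 heat shock genes, 5 were positive with Mt1, 5 with Mt2 and 3 with Mt3, with Hsp90aa1, a cytosolic chaperone, at 0.148 with Mt1 and 0.155 with Mt2. Among 6 glucocorticoid response genes 1, 0 and 1 were positive and 1, 2 and 2 negative with Mt1, Mt2 and Mt3, and among 4 genes of the NRF2 response 1, 1 and 2 were positive and 1, 0 and 1 negative. Negative counts were 0, 1 and 0 for copper and 0 throughout for heat shock genes, where 14.1%, 15.8% and 9.07% of all genes were negative in all 4 libraries with Mt1, Mt2 and Mt3. The median mean r with Mt1 was 0.052 for the heat shock list, 0.035 for copper, 0.0078 for zinc, 0.0032 for NRF2 and -0.018 for glucocorticoid genes, where that of all genes was 0.011.

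The same lists were read by state, beside the share of all genes that passed in either direction, 46.1% in the cytokine, 29.6% in the hypoxia and 16.9% in the granzyme C state. Of 17 zinc handling genes tested, 8 rose and 0 fell in the cytokine state, a count near that share, and the 3 members had log2 differences between 0.02 and 0.07 there. In the hypoxia state 2 rose and 1 fell, and in the granzyme C state 3 rose and 0 fell, the latter again near the share of all genes. Those in the granzyme C state included the zinc transporter genes Slc30a4 (log2 1.32 ± 0.28, adjusted p = 0.00054) and Slc39a14 (1.08 ± 0.17, adjusted p = 5.0e-06). Mtf1 had a log2 difference of 0.06 ± 0.07 in the hypoxia state (adjusted p = 0.61). Of 6 NRF2 response genes, 2 rose in the hypoxia state, among them heme oxygenase Hmox1 (1.23 ± 0.11, adjusted p = 8.8e-12), and 2 fell. Of 8 heat shock genes, 5 rose and 1 fell in the hypoxia state and 1 rose and 5 fell in the granzyme C state. Of 8 copper handling genes, 2 rose and 2 fell in the hypoxia state. Of 6 glucocorticoid response genes, 2 rose and 1 fell there. The median log2 difference in the hypoxia state was 0.12 for the zinc list, -0.05 for copper, -0.06 for NRF2, 0.04 for glucocorticoid and 0.24 for heat shock genes, beside -0.02 over all genes tested.

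Within the 3 anti-PD-1 libraries, each knockout was compared with the sgNT cells, on counts summed per target and library, in 1 edgeR fit over all targets. No member is a target of the guide library. Over all genes and 82 targets, 464 of 772358 gene and target pairs (0.0601%) had an adjusted p under 0.05. None of the pairs with Mt1, Mt2 or Mt3 did. At an unadjusted p under 0.05 there were 4 of the 82 targets for Mt1, 6 for Mt2 and 6 for Mt3. The share of all pairs under that unadjusted p is not given here, so these counts are not read as differences. The lowest adjusted p was 0.281, for Mt2 in sgPik3cd. In a simulation of sgPik3cd on these cells, 21.5% of 200 genes changed by 1 on the log2 scale were found, so differences of that size could be missed.

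The lowest p-values are given with their levels. Pik3cd encodes a catalytic subunit of PI3K, a lipid kinase that acts downstream of the T cell receptor. In sgPik3cd cells Mt2 had 32.4, 18.7 and 23.0 CPM in replicates 1, 2 and 3, where sgNT cells had 46.0, 44.1 and 51.0 CPM. It was lower in each library, and the log2 difference was -0.96 ± 0.34 (edgeR, adjusted p = 0.281). The IgG library, which the fit did not use, had 10.6 CPM in sgPik3cd and 32.4 CPM in sgNT cells. Those values rest on 13, 10, 57 and 16 Mt2 UMIs in the sgPik3cd cells. With all 4 libraries in the fit the difference was -1.10 ± 0.30 and passed (edgeR, adjusted p = 0.0263), and without the filter on low counts it was -1.01 ± 0.24 (adjusted p = 0.00865).

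Cells with sgAlox8, directed at a lipoxygenase, had 64.7, 90.3 and 95.2 CPM of Mt2 under anti-PD-1, above the sgNT cells of each library, with a log2 difference of 0.80 ± 0.28 (adjusted p = 1). In IgG the values were 34.8 CPM for sgAlox8 and 32.4 CPM for sgNT. Kmt2b encodes a histone H3K4 methyltransferase, and in its knockout Mt2 had 23.2, 44.0 and 14.5 CPM, level with the sgNT cells in replicate 2 and below them in replicates 1 and 3, with a log2 difference of -0.82 ± 0.32 (adjusted p = 0.667). For Mt1 the 3 lowest p-values were in sgNsd1 (-1.13 ± 0.48), sgPla2g4b (-0.81 ± 0.36) and sgKmt2b (-0.68 ± 0.32). The sgNsd1 value comes from 1 library, replicate 3 (150 CPM against 367 CPM in sgNT cells), so its SE assumes that it varies like the other targets. In IgG, which the fit did not use, Mt1 had 105 CPM in sgNsd1 and 208 CPM in sgNT cells. Mt1 was at 110, 107 and 231 CPM in sgPla2g4b and at 183, 170 and 197 CPM in sgKmt2b, below the sgNT cells (240, 266 and 367 CPM) of each library. For Mt3 they were in sgCyb5rl (-0.89 ± 0.37), sgMgat2 (-0.62 ± 0.28) and sgMogat2 (-0.86 ± 0.39). Mt3 was at 18.2, 17.3 and 20.03 CPM in sgCyb5rl, at 28.4, 20.2 and 22.3 CPM in sgMgat2 and at 23.3, 10.3 and 20.9 CPM in sgMogat2, where sgNT cells had 39.5, 44.3 and 26.3 CPM. These rest on 3 to 37 Mt3 UMIs per library and target. Mt3 had a log2 difference below 0 in 67 of 82 targets, with a median of -0.33, all against the same sgNT cells, which in replicates 1 and 2 were above their libraries' mean Mt3 level and in replicate 3 below it. For Mt1 the median was -0.16 and for Mt2 -0.03. These medians moved with the libraries used: that of Mt3 was -0.13 without replicate 2, with 53 of 82 targets below 0, and -0.47 without replicate 3. That of Mt1 was -0.27 without replicate 1 and -0.0070 without replicate 3, and that of Mt2 was -0.079, -0.14 and 0.092 without replicates 1, 2 and 3. Individual nontargeting guides varied widely as well, from 85.0 to 522 CPM of Mt1 over the 34 guides of the IgG library, with a median of 36 cells per guide.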

How the data were processed

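Single-cell 3′ libraries (10x Genomics, v3.1 chemistry with guide capture) of sorted CD90.1+ OT-I cells were analysed from 4 gene expression matrices, 3 anti-PD-1 and 1 IgG. The deposited values are raw UMI counts of each gene in each barcode, for which the authors ran Cell Ranger 3.1.0 against mm10. Its annotation release was not stated. The processing notes also name Seurat and R 3.6.3. The deposited number of guides called per barcode came from the authors' feature barcoding run. No further normalization had been applied to the deposited counts, and no other sample's columns were present.

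Barcodes with exactly 1 called guide were kept where log UMIs lay within 3 median absolute deviations of the library's median and the mitochondrial share was at most 10%; this upper limit also served as the treatment of doublets, and no doublet caller was run. Levels are summed UMIs per 1000000 gene UMIs (CPM) with exact 95% Poisson or binomial intervals, which cover counting error only. States were assigned from 9 marker lists (score at least 0.5), and counts summed per state and library were tested with edgeR 4.0.16 (quasi-likelihood, library as block, low-count filter, Benjamini-Hochberg over all genes of a contrast, threshold 0.05). Knockouts were tested likewise on sums of at least 10 cells per target and library. Both tests were run on simulated data with 200 genes changed at a log2 size of 1. For the hypoxia state 94.5% were recovered over 10886 genes, with 9 false calls. For sgPik3cd 21.5% were recovered over 9419 genes, with 1 false call. The state simulation used 1 mean profile for all states and libraries and a preset dispersion, so it does not give the power of the test on the real states. Other tools were R 4.3.3, DESeq2 1.42.0 as an alternative, and Python with numpy, scipy and pandas. Positions are from GENCODE M21 (GRCm38) and promoter windows from RefSeq.

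The members, marker lists and pathway lists were chosen with earlier results of these data known. Named by rule were the members, the 10 genes with the highest mean within-library r for each, and the 3 targets with the lowest p for each; pathway genes were taken from fixed lists, and those given with values were picked after their values were seen. The labels do not say whether libraries came from separate mice, and replicates 1 and 2 share an identifier in their titles, so p-values measure the spread between these libraries only, which may be technical. Alternatives changed the scaling, the cells, the depth, the score threshold, the filter, the tool and the libraries used.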

Additional observations from a re-analysis of the deposited data

Results flagged for a closer look

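In the G1/S state, the Mt1 level relative to the mean of the other states was -0.069 on the log2 scale in IgG and 0.027, 0.15 and 0.0059 in anti-PD-1 replicates 1, 2 and 3. It was singled out because IgG lay on the other side of 0 from all 3 anti-PD-1 libraries. The difference between treatments was not tested.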

How the results depend on the processing

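The treatment differences of all 3 members moved with depth. In bands of 5000 to 10000, 10000 to 15000 and 15000 to 20000 UMIs per cell, chosen after seeing the data, the log2 ratio of anti-PD-1 to IgG was -0.20, -0.32 and -0.15 for Mt1 and -0.033, -0.15 and 0.054 for Mt2, and 0.61, 0.73 and 0.32 for Mt3, against 0.36, 0.57 and 1.07 in all cells. Replicate 3 alone against IgG gave 0.49, 0.47 and 0.89, and equal weight of the states gave 0.42 for Mt2. Of the 42 treatment values under alternatives, 29 moved by less than 1 SD of the anti-PD-1 libraries. Mt2 passed in 1 state among nontargeting cells alone, where few cells were left. Mt3, called in 4 states, passed in 2 with thinned cells, 1 among nontargeting cells, 7 without a filter on low counts and 2 without IgG; over the libraries left out in turn the count ran from 2 to 5. Mt2 was called in 1 knockout with all 4 libraries and in 1 without the filter, sgPik3cd both times. In 164 of 182 values of single called states under alternatives the call was unchanged, the other 18 lost it, and 0 changed direction. The cause of these changes was not tested. DESeq2 was run for the states but not for the knockouts. No paired analysis was possible because the 2 treatments share only 1 replicate number. States also became calls under alternatives. Without the filter on low counts the G2/M difference passed for Mt1 (0.14, adjusted p = 0.0019) and Mt3 (0.24, adjusted p = 0.0019) and the exhausted one for Mt2 (-0.17, adjusted p = 0.039). The G2/M difference of Mt2 passed in barcodes with no called guide (-0.41, adjusted p = 0.00070) and with the best-scoring cells (-0.17, adjusted p = 0.019), where its cytokine difference passed too (0.11, adjusted p = 0.047). A single IgG library leaves the treatment values without a test, and at the depth of single targets a knockout difference of 1 on the log2 scale could be missed.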
